A study of Mus musculus with 11 samples.

Results

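The genes described here are 7 transcription factors and markers of the primitive endoderm: Gata6, Gata4, Sox17, Sox7, Foxa2, Dab2 and Pdgfra. They were chosen as a list with earlier results of these data known, and all 7 were looked up in every table, among 29686 gene names listed across the single-cell tables. The study measured RNA in mouse embryonic stem (ES) cells to compare soft agarose microgels with plastic, and cells overexpressing plakoglobin, the junction protein encoded by Jup, with wild type. Single cells were sequenced with inDrop, a droplet method that counts each captured transcript through a unique molecular identifier (UMI), in 5 libraries. Of these, 3 hold wild-type E14 cells, an established ES line: in serum/LIF medium on tissue-culture plastic (called here wild type serum), in 2i/LIF medium on plastic (wild type 2i), and in serum/LIF inside agarose microgels (wild type gel). Serum/LIF is serum with the cytokine LIF, and 2i/LIF adds to LIF the inhibitors of the kinases MEK and GSK3. The other 2 hold cells in serum/LIF on plastic with the genotypes PGHIGH and PGLOW, labelled as high and low plakoglobin overexpression from the constitutive CAG promoter. They are called the libraries labelled JupHigh and JupLow. The labels name neither their parent line nor whether each is a clone. Bulk Smart-seq2 libraries, each from about 1000 cells of the line Rex1GFPd2 in 2i/LIF, comprise 3 gel and 3 plastic samples.

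The primitive endoderm is the extraembryonic layer that forms next to the pluripotent epiblast in the blastocyst and gives rise to the visceral and parietal yolk sac endoderm. FGF4 from epiblast cells, acting through FGF receptors, MEK and ERK, favours this fate, and GATA6 opposes the epiblast factor NANOG. ES cells kept in serum/LIF are known to hold a few cells that enter this lineage, while 2i/LIF blocks MEK. GATA6 and GATA4 are zinc-finger factors of this programme, SOX17 and SOX7 are related HMG-box factors, and FOXA2 is a forkhead factor of endoderm. DAB2 is an endocytic adaptor needed for ordering the endoderm layer, and PDGFRA is the receptor for PDGF-A that marks primitive endoderm in the blastocyst.

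In GRCm38 (GENCODE M21), Gata4 lies at chr14:63198922-63271692 on the minus strand and Sox7 on the same chromosome at chr14:63943673-63950732 on the plus strand. Sox17 lies at chr1:4490931-4497354 (minus), Foxa2 at chr2:148042877-148046969 (minus), Dab2 at chr15:6299788-6440712 (plus) and Pdgfra at chr5:75152292-75198215 (plus). All 7 genes, Gata6 included, are annotated as protein-coding. Exons of Gata6, Sox17, Dab2 and Pdgfra overlap exons of other annotated genes, and those of Gata4, Sox7 and Foxa2 do not. None of the overlapping partners had a column in any of the 5 tables.

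Because 52 wild type serum cells held 2 or more of the 7 genes, the promoter windows of those found in the RefSeq table (GRCm38.p6) are shown, each the 250 bases before a RefSeq transcript start. Windows were found for Foxa2 (3 starts), Dab2 (2 starts) and Pdgfra (1 start). Gata4, Sox17 and Sox7 had none in that table. Shown are the Foxa2 window at chr2:148045465-148045714 (minus strand, inside the span of the gene), the Dab2 window at chr15:6299539-6299788 (plus) and the Pdgfra window at chr5:75152001-75152250 (plus). Capitals mark the letters GATAA, the core that GATA factors recognise, searched on both strands (reverse complement TTATC).
Foxa2: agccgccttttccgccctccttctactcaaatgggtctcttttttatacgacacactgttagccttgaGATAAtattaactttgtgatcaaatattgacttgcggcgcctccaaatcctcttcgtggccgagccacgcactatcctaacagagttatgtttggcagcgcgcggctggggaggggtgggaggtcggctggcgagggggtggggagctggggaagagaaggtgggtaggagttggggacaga
Dab2: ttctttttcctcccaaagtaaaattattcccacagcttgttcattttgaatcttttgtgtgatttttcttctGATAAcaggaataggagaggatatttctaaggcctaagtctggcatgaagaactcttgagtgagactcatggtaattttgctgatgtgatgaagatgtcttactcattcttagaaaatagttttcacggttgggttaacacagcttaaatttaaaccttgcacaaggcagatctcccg
Pdgfra: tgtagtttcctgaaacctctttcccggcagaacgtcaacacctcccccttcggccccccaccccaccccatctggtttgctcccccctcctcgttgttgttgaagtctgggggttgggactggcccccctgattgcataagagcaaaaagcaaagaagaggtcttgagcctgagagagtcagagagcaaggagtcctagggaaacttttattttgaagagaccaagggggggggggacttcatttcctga
The Foxa2 and Dab2 windows shown held 1 GATAA match each, and the other 4 windows of these genes held none. Of 32851 windows of the same length in the table, 22.6% held such a match. The letters ACAAT (or ATTGT), a core recognised by SOX factors, were in none of the 6 windows and in 27.7% of all windows. The single-cell counts say nothing of binding at these letters.

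Cells were taken as barcodes with at least 1000 UMIs: 112 to 2889 per library, with medians of 1732 to 2465 UMIs per cell. Levels are UMIs per 1000000 UMIs of the library's cells (CPM). Each condition had 1 library, so no single-cell difference has a replicate check or a test, and the 95% intervals (exact Poisson or binomial) cover counting error only. No cell barcode was shared between any pair of libraries. The deposited wild type gel table breaks off within a row: its 891 complete barcodes begin with AAAC to ACCC, while those of the other tables run from AAAC to TGTT, so it holds only part of that library. The wild type serum table lists some genes otherwise than the rest: it has no column for Sox2, and mt-Atp8, whose gene overlaps that of mt-Atp6, stood at 3743 CPM there and at 16.7 to 25.4 CPM in the other 4. Of genes with an exon overlap, 13.4% differed by 8-fold or more between the library labelled JupLow and wild type serum, against 5.70% of genes without. Jup itself, the overexpressed gene, was at 47.8 CPM (41.5 to 54.8) in the library labelled JupHigh, 37.9 (31.1 to 45.7) in that labelled JupLow, 36.7 (28.8 to 46.0) in wild type serum and 46.7 (42.2 to 51.6) in wild type 2i, so the counts do not set the labelled lines apart from wild type. The ES cell identity of the libraries was visible in a list of 10 pluripotency genes, which summed to 2072 to 4158 CPM in each. The 2072 CPM of wild type serum lacks Sox2, which was at 165 to 352 CPM in the other 4.

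The summed level of the 7 genes was highest in wild type serum and lowest in wild type 2i. It was 240 CPM (219 to 263, from 485 UMIs) in wild type serum, 67.7 (38.7 to 110, from 16 UMIs) in the part of the gel library, 32.7 (26.4 to 39.96, from 94 UMIs) in the library labelled JupLow, 17.4 (13.7 to 21.8, from 75 UMIs) in that labelled JupHigh, and 3.74 (2.54 to 5.31, from 31 UMIs) in wild type 2i. In this order the intervals of gel and of the library labelled JupLow overlapped, and those of other neighbours did not. All 4 other libraries are set against the same wild type serum library below, so those comparisons share their control. With Gata4, Sox7 and Foxa2 alone, whose exons overlap no other gene, the sum was also lower than in wild type serum: by -4.71 on the log2 scale in 2i, -3.81 in the library labelled JupLow, -3.54 in that labelled JupHigh and -2.52 in gel.

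**Figure D1:**
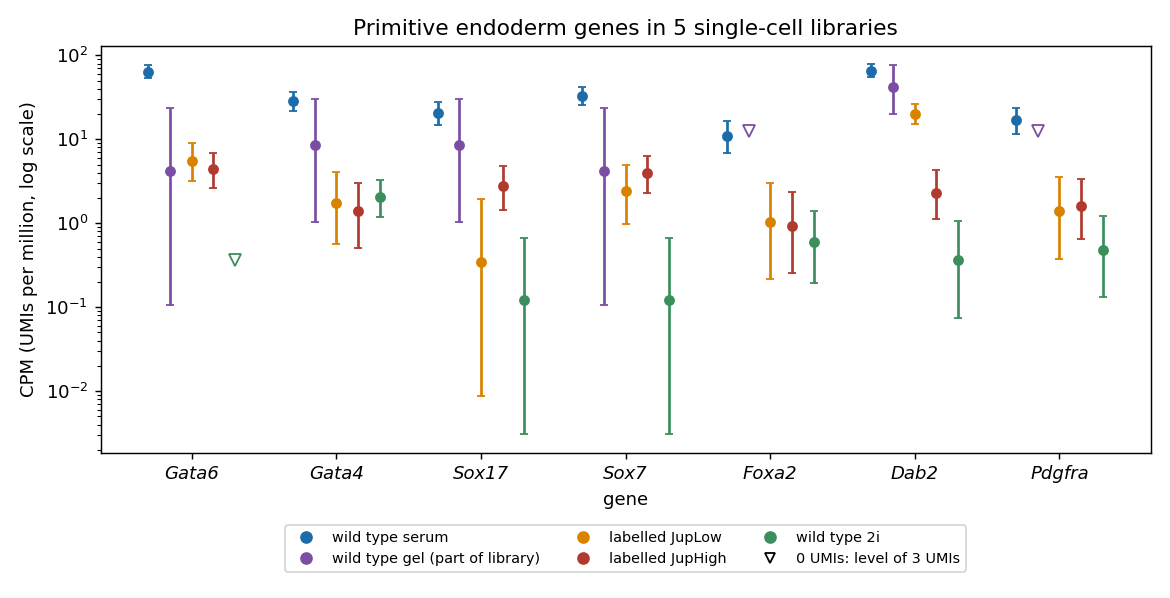
Level of each of the 7 genes in CPM (log axis) in the 5 single-cell libraries, with exact 95% Poisson intervals (counting error only). Open triangles mark genes with 0 UMIs at the level of 3 UMIs. The wild type serum values, from 10.9 (Foxa2) to 65.9 (Dab2), are the highest measured for each gene. The gel limit of 12.7 lies above the wild type serum value of Foxa2.

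Among the transcription factors, Gata6 was at 63.9 CPM (129 UMIs) in wild type serum, 5.56 (16 UMIs) in the library labelled JupLow, 4.41 (19 UMIs) in that labelled JupHigh and 4.23 (1 UMI) in gel. It has no column in the wild type 2i table, where each listed gene has at least 1 UMI, and was counted as 0 of 8284254 UMIs. This takes a gene without a column to have no UMI, which Sox2 in the wild type serum table shows to be uncertain. Both Jup libraries lay far below wild type serum and their intervals overlapped each other and that of gel. Gata4 stood at 28.7 CPM (58 UMIs) in wild type serum, 8.47 (2 UMIs) in gel, 2.05 (17 UMIs) in wild type 2i, 1.74 (5 UMIs) in the library labelled JupLow and 1.39 (6 UMIs) in that labelled JupHigh. Its intervals in 2i and in both Jup libraries overlapped, and it held 17 of the 31 member UMIs of wild type 2i.

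Sox17 was at 20.8 CPM (42 UMIs) in wild type serum, 8.47 (2 UMIs) in gel, 2.78 (12 UMIs) in the library labelled JupHigh, 0.347 (1 UMI) in that labelled JupLow and 0.121 (1 UMI) in 2i. Sox7 followed with 33.2 CPM (67 UMIs), 4.23 (1 UMI), 3.94 (17 UMIs), 2.43 (7 UMIs) and 0.121 (1 UMI) in the same order of libraries. Foxa2 was at 10.9 CPM (22 UMIs) in wild type serum, 1.04 (3 UMIs) in the library labelled JupLow, 0.928 (4 UMIs) in that labelled JupHigh, 0.604 (5 UMIs) in 2i and 0 UMIs in gel, where 3 UMIs would have been 12.7 CPM. For Foxa2, the intervals of the libraries other than wild type serum all overlapped.

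Of the markers, Dab2 was at 65.9 CPM (133 UMIs) in wild type serum, 42.3 (10 UMIs) in gel, 20.2 (58 UMIs) in the library labelled JupLow, 2.32 (10 UMIs) in that labelled JupHigh and 0.362 (3 UMIs) in 2i. The gel value rests on 3 cells, of which 1 held 8 of the 10 UMIs, and its interval (20.3 to 77.9) covers the value of wild type serum. Pdgfra was at 16.9 CPM (34 UMIs) in wild type serum, 1.62 (7 UMIs) in the library labelled JupHigh, 1.39 (4 UMIs) in that labelled JupLow, 0.483 (4 UMIs) in 2i and 0 UMIs in gel. Dab2 was the only member at over 10 CPM in either Jup library, and its intervals in them did not overlap.

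All 7 genes were lower in wild type 2i than in wild type serum by 8-fold or more, Gata6 by a 0 that rests on its missing column. Of 15536 genes with at least 10 UMIs in both libraries together, 7.94% were lower by 8-fold or more, and 21.5% by 2-fold or more. The sum of the 7 differed by -6.01 on the log2 scale (-6.58 to -5.48), a 64.2-fold lower level in 2i. Gata6, at 0 UMIs in 2i, had an interval that ends at -7.14. Gata4 differed least, by -3.81 (-4.68 to -3.01), followed by Foxa2 at -4.17 (-5.93 to -2.74) and Pdgfra at -5.13 (-7.08 to -3.64). Sox17 at -7.43 (-12.8 to -4.87), Dab2 at -7.51 (-9.80 to -5.93) and Sox7 at -8.10 (-13.4 to -5.58) rest on 1 to 3 UMIs in 2i. The median of the 7, with Gata6 taken as the lowest from its uncertain 0, was -7.43, beside -0.05 over all 15536 genes.

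In the library labelled JupHigh, all 7 genes were lower than in wild type serum by 2-fold or more, and 6 of 7 by 8-fold or more, Sox17 being the exception. Of 14503 genes, 20.8% were lower by 2-fold and 6% by 8-fold. The differences ran from -2.90 (-3.96 to -1.95) for Sox17 to -4.83 (-5.92 to -3.90) for Dab2, with a median of -3.55 beside -0.20 over all genes. The sum differed by -3.79 (-4.16 to -3.44), 13.8-fold. In the library labelled JupLow, again all 7 were lower by 2-fold or more and 6 of 7 by 8-fold or more, here with Dab2 as the exception. Of 13999 genes, 12.2% were lower by 2-fold and 4.49% by 8-fold. The 6 others ran from -3.39 (-5.77 to -1.65) for Foxa2 to -5.91 (-11.2 to -3.35) for Sox17, the latter from 1 UMI, while Dab2 differed by -1.71 (-2.18 to -1.25). The median was -3.60 beside -0.04 over all genes, and the sum differed by -2.88 (-3.21 to -2.56), or by -3.80 without Dab2.

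Between the Jup libraries themselves, only Dab2 and Sox17 differed by 2-fold or more among the 6 members with at least 10 UMIs. Dab2 was 8.69-fold lower in the library labelled JupHigh (log2 -3.12, -4.25 to -2.14), where 13.1% of 14212 genes were lower by 2-fold and 1.91% by 8-fold. Sox17 was higher there in UMIs, 12 against 1 (log2 3.00, 0.25 to 8.42), with 7.21% of genes higher by 2-fold. By cells, Sox17 was found in 6 of 2153 there (0.279%, 0.102 to 0.606) and in 1 of 1200 of the other library (0.0833%, 0.00211 to 0.463). These shares have overlapping intervals. Gata6 differed by -0.33 (-1.37 to 0.72), Gata4 by -0.32 (-2.29 to 1.73), Sox7 by 0.70 (-0.65 to 2.21), Pdgfra by 0.22 (-1.75 to 2.44) and Foxa2, with 7 UMIs in all, by -0.17 (-2.73 to 2.60), each with an interval that includes 0. The sum was lower in the library labelled JupHigh, by -0.91 (-1.37 to -0.46), and this turned to 0.27 (-0.34 to 0.90) when Dab2 was left out.

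In the part of the gel library, the sum of the 7 was lower than in wild type serum by -1.83 on the log2 scale (-2.65 to -1.11), from 16 UMIs. Gata6 at -3.92 (-9.23 to -1.41) and Sox7 at -2.97 (-8.30 to -0.44) had intervals below 0, each from 1 UMI in gel. Pdgfra, at 0 UMIs, had an interval that ends at -0.03, and for Foxa2 the depth of the gel table could not show a difference. By share of cells, only Gata6 of these 3 genes had separate intervals (0.0226% to 4.87% in gel, 5.6% to 9.6% in wild type serum). Those of Sox7 (0.0226% to 4.87% and 2.92% to 6.015%) and Pdgfra (0% to 3.24% and 1.6% to 4.06%) overlapped. Gata4 at -1.76 (-4.84 to 0.15), Sox17 at -1.30 (-4.39 to 0.65) and Dab2 at -0.64 (-1.73 to 0.29) had intervals that include 0. In gel 23.2% of 11938 genes were lower by 2-fold or more. The sum depended on the cells taken: it differed by -4.03 with cells of at least 2000 UMIs, by -1.22 with at least 500 and by -1.42 with every barcode. Without Dab2 it differed by -2.78.

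Most UMIs of the 7 genes in wild type serum lay in a few cells. There, 113 of 725 cells (15.6%, 13.0 to 18.4) had at least 1 UMI of any of them, 52 cells (7.17%, 5.40 to 9.30) had UMIs of at least 2, and 36 of at least 3. A single member was found in 61 cells, and 2 cells held all 7. The 52 cells held 413 of the 485 member UMIs, or 85.2%, with up to 37 member UMIs in a cell. After thinning each cell to 1000 UMIs, so that depth does not set the share, 5.10% of wild type serum cells (37 cells, 3.62 to 6.97) had at least 2 members. Within wild type serum the unthinned share hardly moved with depth: it was 7.41% among 297 cells of 1000 to 2000 UMIs, 6.78% among 295 cells of 2000 to 4000, and 7.52% among 133 deeper cells.

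The other libraries held few such cells. In wild type 2i, 30 of 2889 cells had 1 member, at a median of 4400 UMIs against 2436 in cells with none, and 0 had 2 or more, which allows a share of up to 0.104% by the limit of 3 cells and 0.128% by the exact interval. Both limits cover the sampling of cells and not transcripts missed within a cell. The thinned shares with at least 2 members were 0.232% (5 of 2153 cells, 0.0755 to 0.541) in the library labelled JupHigh, 0.167% (2 of 1200 cells, 0.0202 to 0.601) in that labelled JupLow and 1.79% (2 of 112 cells, 0.217 to 6.30) in gel. Without thinning these were 7, 4 and 2 cells, or 0.325%, 0.333% and 1.79%. Those cells held 46.7%, 26.6% and 75% of the member UMIs of their library, against 85.2% in wild type serum. The intervals of both Jup libraries lay below that of wild type serum, and that of gel overlapped it. With Gata4, Sox7 and Foxa2 alone, the thinned share of wild type serum was 0.552% (0.15 to 1.41). It was then 0 in the libraries labelled JupLow (up to 0.307%) and JupHigh (up to 0.171%), whose intervals overlapped that of wild type serum.

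**Figure D2:**
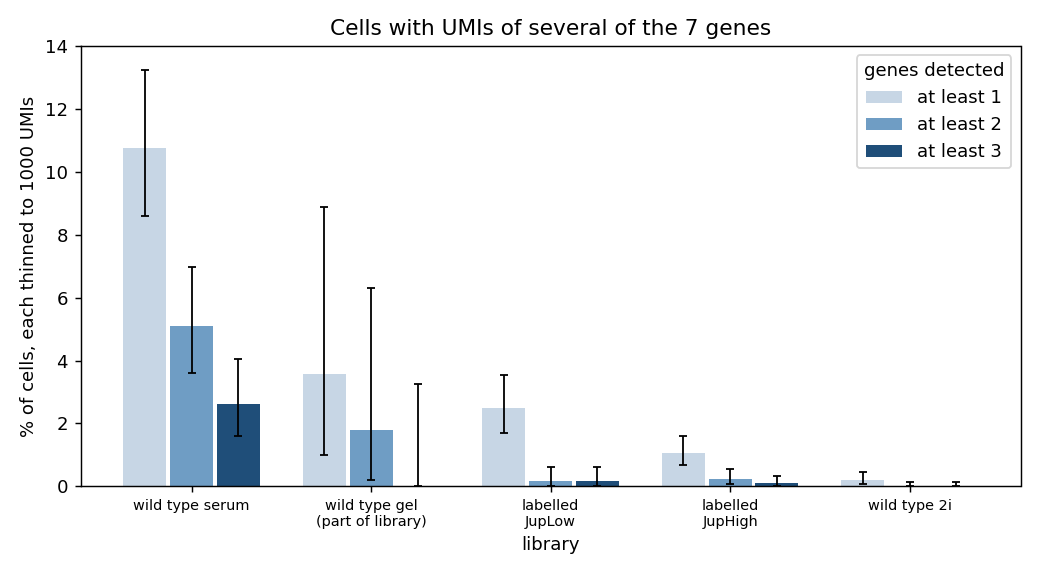
Percent of cells in which at least 1, 2 or 3 of the 7 genes had a UMI after each cell was thinned to 1000 UMIs, by library, with exact 95% binomial intervals. Wild type serum reaches 5.10% for at least 2 genes, and wild type 2i has no such cell.

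In wild type serum, each of the 21 pairs of members was found in more cells than the product of the members' shares gives, by 5.35 to 13.5 times. Gata6 and Sox7 shared 25 cells, where the product of their shares is 2.31 cells, and these are 80.6% of the 31 cells with Sox7. Gata6 and Dab2 shared 30 cells (product 4.62), and Gata4 and Gata6 shared 21 (product 2.61). Gata4, Sox7 and Foxa2, whose exons overlap no other gene, shared 16 (Gata4 and Sox7), 12 (Gata4 and Foxa2) and 11 cells (Sox7 and Foxa2). The pair of Foxa2 and Pdgfra, each detected in 19 cells, shared 6 (product 0.498), as did Sox17 and Pdgfra. Summed over the 21 pairs, wild type serum had 298 pair detections (product 34.9), the library labelled JupHigh 25 (product 0.709), that labelled JupLow 18 (product 1.35), gel 4 (product 0.277) and wild type 2i 0 (product 0.102). A cell with several members counts in several pairs. The pair detections came from 52 cells in wild type serum, 7 in the library labelled JupHigh, 4 in that labelled JupLow and 2 in gel. In each Jup library 1 of these cells held 5 members. Cells of different depth raise shared detection of any genes, so these counts describe and do not test.

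**Figure D3:**
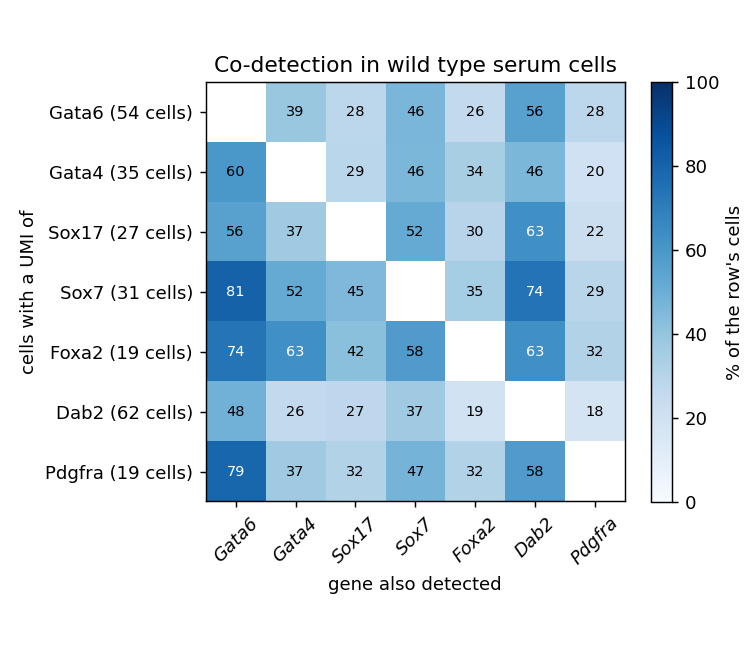
Percent of the wild type serum cells with a UMI of the gene in the row that also had a UMI of the gene in the column. Most cells with Sox7 (81%), Pdgfra (79%) or Foxa2 (74%) also had Gata6.

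Each member was at its highest level in wild type serum cells that held others of the 7. Gata6 stood at 802 CPM (652 to 976) in the 42 cells with 2 or more others, at 99.9 (59.2 to 158) in 59 cells with 1 other and at 7 (3.62 to 12.2) in 624 cells with none, and it was detected in 76.2%, 16.9% and 1.92% of them. Dab2 was at 680 CPM with 2 or more others and 19.7 with none, Sox7 at 446 and 1.77, Gata4 at 318 and 6.40, Sox17 at 240 and 4.09, Pdgfra at 183 and 1.77, and Foxa2 at 132 and 0.592. For all 7 the intervals of cells with 2 or more others and with none did not overlap. The cells without other members had Dab2 in 3.92%, the highest share of the 7, against 0.163% for Foxa2. Barcodes with fewer than 500 UMIs in this library, too shallow to be taken as cells, held the 7 genes at 257 CPM in all, so a single UMI in a cell may be free RNA.

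In the libraries labelled JupHigh and JupLow, Gata6 was also at its highest level in the few cells with 2 or more other members. Such cells held 9 of its 19 UMIs in the former library and 9 of 16 in the latter. In wild type serum they held 99 of 129. Gata6 was at 906 CPM (414 to 1719) in 5 such cells of the library labelled JupHigh and at 932 (426 to 1770) in 4 of that labelled JupLow, against 1.89 and 2.61 in cells with no other member. In the latter library 8 of the 9 UMIs came from 1 cell, and 2 of the 4 cells had none. Sox7 was at 351 CPM (95.7 to 899) and 414 (113 to 1061) in such cells. Gata4 was detected in 1 of 7 such cells of the library labelled JupHigh and in 0 of 4 of that labelled JupLow, and in 42.6% of 47 in wild type serum. In wild type 2i, none of the 16 cells with Gata4 had another member.

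**Figure D4:**
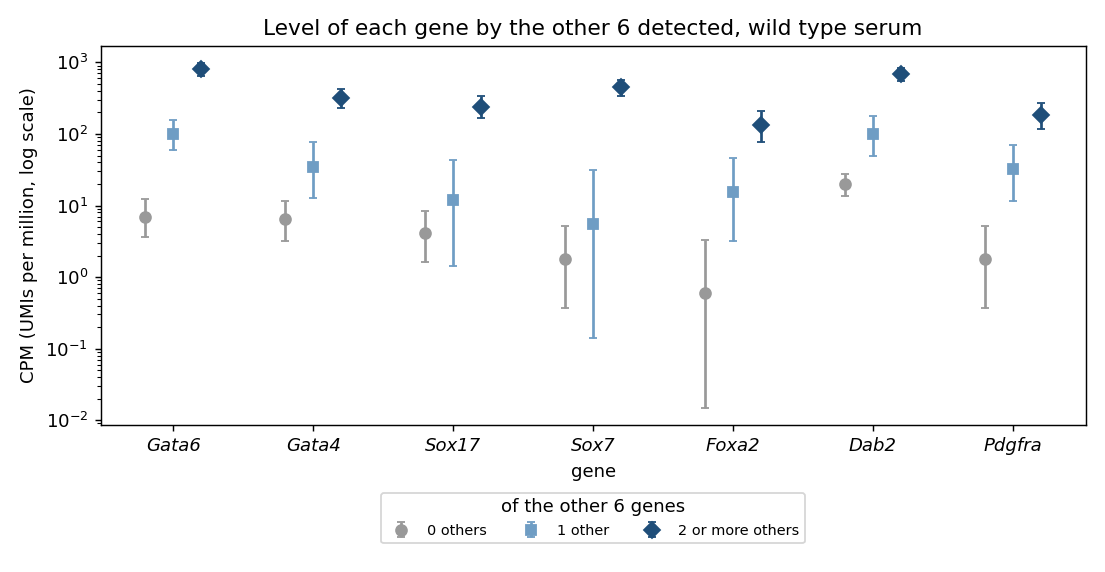
Level of each gene (CPM, log axis) in wild type serum cells grouped by how many of the other 6 genes had a UMI, with exact 95% Poisson intervals. Gata6 goes from 7 with no other gene to 802 with 2 or more.

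Cells with 2 or more members differed from cells with none in genes of the basement membrane, the sheet of laminin and type IV collagen that parietal endoderm lays down as Reichert's membrane. In wild type serum the 52 cells were set against the 612 with none, at near-equal depth (medians of 2412 and 2375 UMIs), for genes with at least 20 UMIs. All 10 genes of a list of basement membrane and secretion were higher by 2-fold or more in the 52 cells, while 15.3% of 8852 genes were. Their sum was 25831 CPM against 1214, a log2 difference of 4.41 (4.33 to 4.49). Lama1, the laminin alpha-1 chain, was at 3437 CPM against 38.5, and Col4a1 and Col4a2, the type IV collagen chains, at 3472 against 73.5 and 2167 against 52.1. P4ha2, a collagen prolyl hydroxylase, was at 505 against 13.0. These cells were defined by the members, and the list was chosen with earlier results of these data known, so the difference describes them and carries no test.

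Further primitive endoderm genes went the same way: their sum was at 2988 CPM in the 52 cells and 178 in the 612 (log2 4.07, 3.86 to 4.29). Of the 12, 6 had at least 20 UMIs, and Cubn, Pth1r and Foxq1 reached that number only through the 52 cells. Hnf4a and Foxa3 had 0 UMIs in the 52 cells and 1 and 2 in the 612. Srgn, the proteoglycan serglycin, was at 1795 CPM against 32.6. Cubn, the endocytic receptor cubilin of the visceral yolk sac, was at 182 CPM (26 UMIs) against 0.593 (1 UMI), Pth1r, the parathyroid hormone receptor of early endoderm, at 210 (30 UMIs) against 1.18 (2 UMIs), and the forkhead gene Foxq1 at 238 (34 UMIs) against 1.78 (3 UMIs). Foxa1, a relative of Foxa2, had 0 UMIs in both classes.

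Markers of the later endoderm layers were uneven. The parietal endoderm list summed to 694 CPM in the 52 cells and 379 in the 612 (log2 0.88, 0.55 to 1.18). Snai1, a repressor of epithelial genes, was at 168 CPM (24 UMIs) against 4.74 (8 UMIs), Plat, the tissue plasminogen activator, at 98.2 (14 UMIs) against 6.52 (11 UMIs), and Fst, the activin antagonist follistatin, at 56.1 (8 UMIs) against 9.48 (16 UMIs). Vim (log2 -0.31, -0.84 to 0.17), Krt19 (0.46, -1.23 to 1.79) and Pdpn (0.66, -1.31 to 2.16) had intervals that include 0. These 6 had at least 20 UMIs, a number that Snai1, Plat and Fst reached only with the 52 cells. Stra6 and Thbd had 6 and 2 UMIs in the 52 cells, and 1 and 0 in the 612. The visceral endoderm list summed to 316 CPM (45 UMIs) in the 52 cells and 210 in the 612 (log2 0.59, 0.10 to 1.04), nearly all of it from Spink1, at 168 CPM against 27.8, and Apoe, an apolipoprotein, at 133 against 180. Apoa1, Apoa2, Apom, Rbp4 and Trf had 0 UMIs in the 52 cells and 0 or 1 in the 612, too few to compare, and Fgb had 2 and 1. Ttr and Afp have no column in the wild type serum table and were left out of these sums.

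Genes of other lineages gave few UMIs in the 52 cells, which hold 142581 UMIs in all against 1687860 in the 612. The fibroblast list (Col1a1, Col1a2, Col3a1, Dcn, Lum, Postn, Thy1) had 0 UMIs there and 78 in the 612, a log2 difference of at most -0.80 by its interval. The mesoderm list had 0 and 20 UMIs (interval up to 1.26) and the trophoblast list 2 and 86 (14.03 CPM against 51.0, log2 -1.86, -4.93 to 0.04), both with intervals that include 0. The mesendoderm and definitive endoderm list was at 14.03 CPM (2 UMIs, 1 each of Eomes and Hhex) against 10.7 (18 UMIs), log2 0.40 (-2.76 to 2.46). At this depth no difference in the sums of these last 3 lists was detectable, though Tfap2c of the trophoblast list had 0 UMIs against 46, with an interval just below 0 (up to -0.02).

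Pluripotency genes were lower in sum in the 52 cells, but not each of them. The list summed to 1227 CPM against 2107 (log2 -0.78, -1.01 to -0.56), and of the 9 genes with 20 UMIs 4 were lower by 2-fold or more and 1 was higher, while 19.6% of all genes were lower. Tdgf1, a NODAL co-receptor, differed by -2.86 (-4.31 to -1.72), Nanog by -2.56 (-5.62 to -0.68), Utf1 by -2.05 (-2.87 to -1.34) and Pou5f1 by -1.41 (-2.03 to -0.85). Pou5f1 was detected in 30.8% of the 52 cells and 50.7% of the 612. Fgf4 (-0.86, -3.95 to 1.08), Zfp42 (-0.77, -1.74 to 0.06), Esrrb (-0.72, -2.2 to 0.45) and Dppa5a (-0.17, -0.57 to 0.21) had intervals that include 0. Klf4 went the other way, at 309 CPM against 48.6 (2.67, 2.11 to 3.21). The share of mitochondrial UMIs was 4.18% in the 52 cells and 11.4% in the 612, and the median number of genes detected 1512 and 1154. Their part in these differences was not tested, nor was that of free RNA or doublets in the pluripotency UMIs of these cells. The mitochondrial share was also lower in cells with 2 or more members of the libraries labelled JupHigh (6.10% against 14.8%) and JupLow (1.40% against 11.7%).

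The 17 genes of the FGF and ERK pathway summed to 2286 CPM in the 52 cells and 2177 in the 612 (log2 0.07, -0.10 to 0.23), with 2 higher and 4 lower by 2-fold, beside 15.3% and 19.6% of all genes. Transcripts that ERK signalling is known to raise were uneven. Dusp6, an ERK phosphatase, was at 28.1 CPM against 115 and Etv5 at 49.1 against 197, both with intervals below 0. Etv4 (log2 -1.76, -7.09 to 0.80), Spry2 (-0.58, -2.06 to 0.59), Spry4 (-0.24, -2.17 to 1.19) and Dusp4 (0.51, -0.86 to 1.65) had intervals that include 0. Ptpn11, the phosphatase SHP2, was at 147 against 64.0. Of the PDGF ligands, Pdgfa was at 98.2 CPM in the 52 cells and 83.5 in the 612 (log2 0.23, -0.67 to 1.03). Pdgfb had 0 UMIs against 23 and Pdgfc 1 against 58, both with intervals that include 0, and Pdgfd had 2 against 15.

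Matrix levels differed most between cells with 1 member and cells with 2. The basement membrane list summed to 1214 CPM in cells with 0 members, 2640 with 1, 21456 with 2, 27129 with 3 and 27159 with 4 or more. These are pooled over the cells of a class. The median cell held 1, 1, 9.5, 15.5 and 31.5 UMIs of the list per 1000 UMIs in the same order. The typical cell was thus higher again with 3 and with 4 or more members. Depth also differed between these classes, with medians of 1460, 2052, 2114, 2812, 4266 and 6353 UMIs in cells with 2 to 7 members. Its part in the order of the classes was not tested. Cells with a single member had 2405 CPM of the pluripotency list, cells with none 2107, and cells with 2, 3 and 4 or more had 1574, 962 and 1187. On both lists the 61 cells with 1 member lay nearer to the cells with none than to those with 2 or more.

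**Figure D5:**
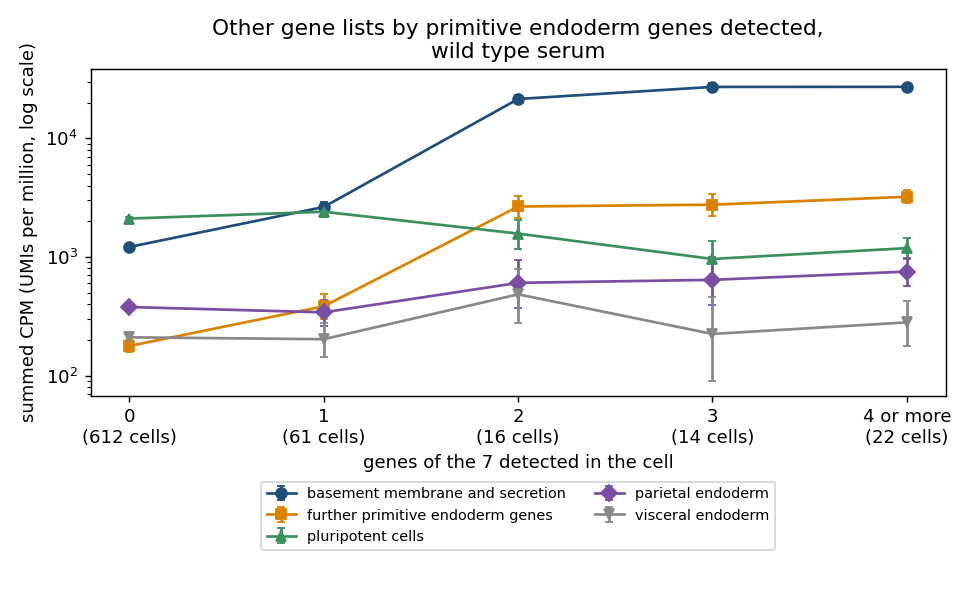
Summed level of 5 gene lists (CPM, log axis) in wild type serum cells by the number of the 7 genes detected, with exact 95% Poisson intervals. The basement membrane list is at 2640 in cells with 1 gene and 21456 in cells with 2.

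The genes whose level followed the number of members most closely over the 725 wild type serum cells were Lama1, Srgn, Sparc, Serpinh1, Col4a1, Lamb1, Col4a2, P4ha1, Ttc41 and P4ha2. Of these, 8 are in the basement membrane or further primitive endoderm lists, chosen with earlier results of these data known, and P4ha1 and Ttc41 are in neither. Their Pearson correlations of log2(1 + UMIs per 1000 UMIs) with the number of members ran from 0.676 (Lama1) to 0.579 (P4ha2), with a median of 0.008 over 5962 genes. These are correlations over cells of a single library and share its depth. P4ha1, Ttc41 and P4ha2 reached the required 50 UMIs only with the 52 cells that held 2 or more members. Sparc, a matrix glycoprotein, was in 46 of the 52 cells at 8024 CPM, and Srgn in 40. Serpinh1, the collagen chaperone HSP47, and P4ha1, a prolyl hydroxylase, act in collagen folding. Across libraries, Col4a1 was at 342 CPM in wild type serum, 67.7 in gel, 73.7 and 29.9 in the libraries labelled JupLow and JupHigh, and 3.02 in 2i. Srgn was at 172, 42.3, 1.04, 1.62 and 1.33 CPM in the same order, and Ttc41 at 74.3, 0, 0.695, 0.696 and 0.966. Sparc was less uneven, at 928, 220, 370, 152 and 206. In cells with 2 or more members, Ttc41 had 101 UMIs in wild type serum. It had 0 in the 7 such cells of the library labelled JupHigh and in the 4 of that labelled JupLow.

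The 7 cells of the library labelled JupHigh with 2 or more members had 18057 CPM of the basement membrane list, against 757 in 2106 cells with none (log2 4.58, 4.39 to 4.76), beside 4.41 in wild type serum. The 4 such cells of the library labelled JupLow had 4143 CPM, against 1004 in 1131 cells (2.05, 1.56 to 2.49). Of the 40 UMIs of the list in these 4 cells, 23 were of Sparc and 5 of Lama1. No other gene of the list had an interval above 0 there. The 2 in gel had 2 UMIs of this list (815 CPM) against 1162 (log2 -0.51, -3.56 to 1.36), and 9 UMIs of the further primitive endoderm list (3669 CPM) against 168 (4.44, 3.21 to 5.52). Of these 9 UMIs, 6 were of Srgn in 1 cell. The further primitive endoderm list differed by 6.02 (5.19 to 6.77, from 18 UMIs) in the library labelled JupHigh. In that labelled JupLow its interval includes 0 (1.59, -0.29 to 2.96, from 4 UMIs).

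Dab2 in the library labelled JupLow was found mostly apart from the other members. Of its 52 cells with Dab2, 48 had no other member and 4 did, whereas in wild type serum 25 had no other member and 37 did. This was not particular to Dab2 or to this library. In the library labelled JupHigh 7 of 10 cells with Dab2 had no other member. In that labelled JupLow the same held for 5 of 5 cells with Gata4, 6 of 8 with Gata6, 3 of 5 with Sox7 and 2 of 3 with Foxa2. It held for 1 of 4 with Pdgfra and 0 of 1 with Sox17. The 48 cells were singled out after the values were seen. The 48 cells held 51 UMIs of Dab2, so most had 1, and barcodes of this library with fewer than 500 UMIs held Dab2 at 9.78 CPM against 20.2 in its cells. Free RNA cannot be told apart from expression in cells with a single UMI. The 48 cells, with a median of 2902 UMIs against 2157 in cells without any member, had 2465 CPM of the basement membrane list (2221 to 2729), above the 1004 (967 to 1043) of the latter. In wild type serum the 25 cells with Dab2 alone were at 1992 (1714 to 2302), an interval that overlaps, and the 37 cells with Dab2 and another member at 24416. Within the list, in the 48 cells, Col4a1 was at 258 CPM against 62.7, Col4a2 at 178 against 36.0, Serpinh1 at 317 against 86.0 and Sparc at 958 against 327, while Lama1 was at 13.2 against 14.6. Lamb1 (log2 1.11, 0.48 to 1.69) and P4hb (0.54, 0.07 to 0.98) also had intervals above 0. Those of Lamc1 (0.36, -0.27 to 0.94), Nid1 (0.90, -0.05 to 1.72) and P4ha2 (-0.72, -6.07 to 1.87) include 0. The share of all genes past the same fold was not counted for the 48 cells. Lrp2, the endocytic receptor megalin, was at 377 against 116.

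In the same 48 cells the pluripotency list was at 1077 CPM against 2368, with Nanog at 13.2 against 97.6, Zfp42 at 46.3 against 254 and Esrrb at 13.2 against 81.5 from 2, 7 and 2 UMIs. Pou5f1 differed less (log2 -0.50, -0.98 to -0.06), and the intervals of Klf4 (-0.92, -2.56 to 0.34) and Fgf4 (-0.47, -2.78 to 1.14) include 0. The cells of this library with a single member, most of which are these 48, had 7.41% mitochondrial UMIs and a median of 1564 genes, against 11.7% and 1049 in cells with none, and the part of this in the differences was not tested. Vim, listed under parietal endoderm and expressed in many mesenchymal cells, was at 337 against 130, and the fibroblast list at 33.0 (10.7 to 77.1) against 27.4. In wild type serum, the 25 cells with Dab2 alone kept the pluripotency list at 2329 CPM, beside 2107 in cells with no member. Srgn was at 305 CPM in the 25 cells with Dab2 alone in wild type serum (32.6 in cells with none), while it was at 1.04 CPM in the whole library labelled JupLow.

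None of the 7 members is among the 12588 genes listed in bulk, so they could not be compared there. Of the genes around them, Pdgfa, a ligand of PDGFRA, was higher in the gel samples of Rex1GFPd2 cells in 2i/LIF. Its values, reads scaled by the authors, were 93.7, 66.3 and 92.1 in gel and 47.8, 48.5 and 45.5 on plastic. The groups did not overlap, and the difference was 0.81 ± 0.17 on the log2(value + 0.5) scale (SE, n = 3 per group, limma, adjusted p = 0.00133). Pdgfc, the other PDGF ligand tested, was not called (0.36 ± 0.30, SE, n = 3 per group, limma, adjusted p = 0.375). In this comparison limma called 18.3% of 7878 tested genes higher in gel and 18.6% lower. Of the 5 tested basement membrane genes 3 were called higher and 0 lower: Lama1 at 24.7 ± 1.04 against 12.5 ± 3.69 (SD, n = 3, limma adjusted p = 0.0117), Lamc1 and Nid1. Sparc was at 207 ± 11.7 against 201 ± 19.6 (SD, n = 3) and was not called.

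Of 11 tested FGF and ERK pathway genes 4 were called higher (Grb2, Sos1, Map2k2, Etv5) and 2 lower, among them Map2k1, with a list median of 0.45 beside -0.02 over all tested genes. Pluripotency genes were called higher in 6 of 10 and lower in 2 of 10. None of the 12 further primitive endoderm genes was tested in bulk. The labels do not say whether samples came from separate cultures, so these p-values measure the spread between the samples. In bulk, fewer cells of a type and less RNA per cell cannot be told apart.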

How the data were processed

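RNA was measured in 11 samples. The single-cell tables as deposited hold raw UMI counts (whole numbers) for each barcode. In bulk they are a signal that the authors made by dividing gene counts by a factor per library, judged from the deposited values: 100% were whole multiples of each library's step within 0.01 reads, giving 637235 to 2583256 recovered reads. The submitters' processing notes name FastQC, STAR, featureCounts, DESeq2, Scanpy and the builds mm10 and GRCm38, without roles. Strand use in counting is not given in the sources used here.

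Barcodes with at least 1000 UMIs were kept, without a doublet caller. Nameless columns (0.00509% to 0.499% of UMIs) and barcodes starting and ending with 8 G were left out. CPM are UMIs per 1000000 of a library's cells, and ratios carry exact 95% conditional intervals. Wild type serum had 2017950 UMIs, 2i 8284254, gel 236195, JupLow 2878334 and JupHigh 4310792. A ratio or share was compared with the other genes holding at least 10 UMIs (20 UMIs between cell classes).

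Bulk groups were compared with limma 3.58.1 (R 4.3.3) on log2(value + 0.5), Benjamini-Hochberg at 0.05, with edgeR 4.0.16 and DESeq2 1.42.0 on recovered reads as alternatives. On simulated data with genes changed 4-fold, 98.5% were recovered. Bulk columns marked both gel and plastic were read as plastic, and the second plastic sample was numbered by its title.

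Members and gene lists were chosen with earlier results of these data known. Named are all members, up to 4 genes per list with the largest log2(CPM + 1) difference between cells with 2 or more members and none in wild type serum, and the 10 genes with at least 50 UMIs that correlated best. Jup, mt-Atp8, Pou5f1, Apoa1 and other listed genes at 0, Fst, the genes of the Dab2 cells and the bulk genes were named after their values were seen. The value of 1 pathway gene is not reported here.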

Additional observations from a re-analysis of the deposited data

Results flagged for a closer look

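UMIs of the 7 genes were also found in barcodes with fewer than 500 UMIs, which entered comparisons only where every barcode was taken. In wild type serum, 5905 such barcodes held 557 UMIs of the 7 genes, a level of 257 CPM beside 240 CPM in the cells. At least 1 member was in 522 of these barcodes (8.84%) and 2 or more in 19. The part of the gel library had 13 member UMIs in 439 such barcodes (71.2 CPM beside 67.7 in its cells), and the library labelled JupHigh 13 in 1343 (22.4 beside 17.4), so in these the level was also no lower than in the cells. The library labelled JupLow had 31 in 4405 (16.8 beside 32.7). The wild type 2i table has 1 such barcode, with no member UMI. What these barcodes are was not tested.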

How the results depend on the processing

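With 1 library per condition, no single-cell value has an error beyond counting, and the gel value rests on 16 UMIs of part of a library. The member sum kept its direction in all alternatives for the comparisons of 2i, gel, JupHigh and JupLow with wild type serum. Scaling by TMM factors shifted all genes by 0.25, 0.08, 0.28 and 0.17 on the log2 scale in these, and by 0.11 between the Jup libraries. Without Dab2 the sum differed by -2.78 in gel and -3.80 in JupLow, and by 0.27 (reversed) for JupHigh over JupLow. Gel differed by -4.03 with at least 2000 UMIs per cell, by -1.22 with at least 500 and by -1.42 with every barcode. Counting only Gata4, Sox7 and Foxa2, which have no exon overlap (chosen after seeing the data, like counting every barcode), gave -4.71 for 2i, -3.81 for JupLow and 0.27 for JupHigh over JupLow. The share of wild type serum cells with at least 2 members was 7.17% without thinning, 3.45% without Dab2 and 0.552% with those 3 genes, where fewer genes can be detected. With those 3 genes the share was 0 in gel, JupLow and JupHigh, with intervals that overlap that of wild type serum (0.15 to 1.41). In gel it was also 0 when all members were thinned to 2000 UMIs. In bulk, 2906 genes were called, 727 with a log2 difference of at least 1, 2361 to 2833 when leaving out a replicate, 3158 by edgeR and 2188 by DESeq2. The replicate block gave 2988, but same-numbered samples correlated at -0.05 to 0.02, so the numbers do not pair them.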
